A study of Danio rerio with 4 samples.

Results

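The 2 zebrafish (Danio rerio) copies of TYRP1 were described across polysomal and total mRNA of eif3ha morphant and wild-type embryos. Members were the rows with the Ensembl identifiers ENSDARG00000029204 and ENSDARG00000056151, and these are 2 of the 32313 genes in the files. Both identifiers carry the symbol TYRP1, and no other feature does. RefSeq's gene table for assembly GRCz12tu names the zebrafish genes tyrp1a and tyrp1b without linking either to an Ensembl identifier, so the copies are told apart here by level. ENSDARG00000056151, with the higher level in all 4 libraries, is called the major copy, and ENSDARG00000029204 the minor copy.

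TYRP1, tyrosinase-related protein 1, is a membrane glycoprotein of the melanosome, the organelle in which melanin is made. It belongs to the tyrosinase family with TYR, which oxidises tyrosine in the rate-limiting step, and DCT, which converts dopachrome. In mouse, TYRP1 acts late in the synthesis of brown-black melanin and steadies tyrosinase. In the zebrafish embryo melanin is made by melanophores, which come from the neural crest, and by the retinal pigment epithelium, and pigment becomes visible at about the stage sampled here.

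The study compared eif3ha morphants, embryos injected with an antisense morpholino against a gene for eIF3h (a subunit of the translation initiation factor eIF3), with wild-type embryos, all at about 24 hours post fertilization. The groups were morphant polysomal mRNA, wild-type polysomal mRNA, morphant total mRNA and wild-type total mRNA, each 1 library of whole embryos. Polysomal mRNA, which carries several ribosomes, was taken from 300 embryos and total RNA from 50, as pools. No group with a control injection is named in the labels, so the knockdown and the injection itself cannot be told apart, and with 1 library a group no difference has a replicate check.

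Values are RPKM, reads per kilobase of gene model relative to all mapped reads in that library, as the authors gave them. Reads behind each value were worked back from the equal steps of low values, which gave estimated depths of 22001385 mapped reads in morphant polysomal, 15769469 in wild-type polysomal, 21021420 in morphant total and 24939989 in wild-type total mRNA. Intervals are 95% counting intervals on these reads and hold no variation between embryos or preparations. Of genes with 2 reads over a pair of libraries, 20.2% had 1 read in each polysomal library, where the depths alone would give 48.6%, and 45.4% had 1 in each total library, where they would give 49.6%. Differences between the conditions, differences between the preparations and any dependence between reads of a library enter these shares and cannot be told apart. The counting intervals assume independent reads, so they may be too narrow, above all for polysomal mRNA. No feature carries the symbol eif3ha or eif3hb. EIF3H (ENSDARG00000036116) was the only feature found under a name for eIF3h, and whether it is the targeted gene is not given. It stood at 7.60 RPKM in morphant and 6.33 in wild-type polysomal mRNA and at 5.92 in morphant and 6.24 in wild-type total mRNA. A morpholino need not lower its target's mRNA, so this level does not measure the knockdown.

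Both copies were high in wild-type polysomal mRNA and several-fold lower, at similar levels, in the other 3 libraries. The major copy stood at 12.6 RPKM (547 reads) in morphant polysomal mRNA, 54.8 RPKM (1699 reads) in wild-type polysomal mRNA, 12.03 RPKM (497 reads) in morphant total mRNA and 11.2 RPKM (550 reads) in wild-type total mRNA. Wild-type polysomal mRNA alone was high, with a counting interval of 52.1 to 57.4 RPKM that met none of the others. The intervals of the remaining 3 levels overlapped, and neighbours in their order differed by less than counting error: 11.6 to 13.7 in morphant polysomal, 11.0 to 13.1 in morphant total and 10.3 to 12.2 RPKM in wild-type total mRNA.

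The minor copy repeated this pattern at a lower level. It stood at 6.91 RPKM (292 reads) in morphant polysomal mRNA, 32.7 RPKM (993 reads) in wild-type polysomal mRNA, 8.17 RPKM (330 reads) in morphant total mRNA and 6.76 RPKM (324 reads) in wild-type total mRNA. Again wild-type polysomal mRNA was the high library, with an interval of 30.7 to 34.8 RPKM. Among the others, the interval of morphant total mRNA (7.29 to 9.07 RPKM) overlapped that of morphant polysomal mRNA (6.12 to 7.72), which overlapped that of wild-type total mRNA (6.03 to 7.52). The intervals on the ratios, given with each comparison, put morphant total mRNA above both of these by a small margin in the scaling used. Against morphant polysomal mRNA this order turned under upper-quartile scaling, with a log2 ratio of polysomal over total of 0.24.

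**Figure D1:**
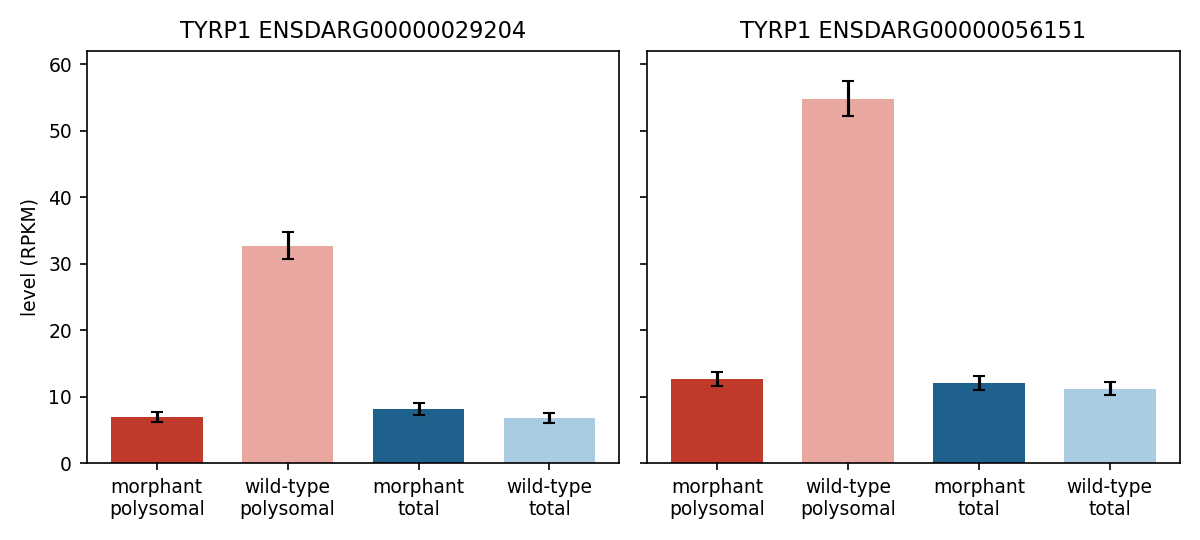
Level of each TYRP1 copy in RPKM (vertical axis) in the 4 libraries, 1 library per bar, with 95% counting intervals as error bars. Wild-type polysomal mRNA, at 32.7 RPKM for the minor copy and 54.8 for the major copy, is the high bar in both panels.

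The ratio of the copies to each other was between 1.47 and 1.83 in the 4 libraries. Per kilobase, the major copy had 1.83 times the reads of the minor copy in morphant polysomal mRNA (95% interval 1.59 to 2.12), against 1.67 times in wild-type polysomal mRNA (1.55 to 1.81). In total mRNA the ratio was 1.47 in morphants (1.28 to 1.70) and 1.66 in wild type (1.45 to 1.91). Of 6 pairs of libraries, 1 had a difference in this ratio whose counting interval excluded 0, morphant polysomal against morphant total mRNA, at 0.31 on the log2 scale (0.03 to 0.60, not adjusted for the 6 pairs). Between morphant and wild type the difference was 0.13 in polysomal mRNA (-0.10 to 0.36) and -0.17 in total mRNA (-0.45 to 0.11). The gene models recovered from the steps were 1969 bases for the major and 1927 bases for the minor copy. Reads were 36 bases long, and how the authors placed reads that match both copies is not given in the sources used here, so the split between the copies is uncertain while their sum is less affected. Among all genes, 3357 had a higher RPKM than the major copy in morphant polysomal mRNA, against 1161 in wild-type polysomal mRNA, and for the minor copy these counts were 5007 and 1727.

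The copies were selected on their polysomal log2 ratio, the lowest of the pigment genes, so the values of this comparison are a description. Unless given on reads, log2 ratios have 0.5 RPKM added to numerator and denominator, which makes differences of low genes look smaller. The minor copy was at -2.16 and the major copy at -2.07 on this scale. On reads per mapped read the minor copy was 4.74-fold lower in morphants (log2 ratio -2.25, interval -2.44 to -2.06) and the major copy 4.33-fold lower (-2.12, interval -2.26 to -1.98). Among the 8261 genes with at least 3 RPKM in 1 of both polysomal libraries, the floor used here, 4.12% had a morphant level at least 2-fold below wild type and 1.76% at least 2-fold above. Of these genes, 59 had a lower ratio than the minor copy and 68 a lower ratio than the major copy. Scaling the libraries to totals without the 50 most abundant genes turned the split of all genes past 2-fold, at 340 lower and 145 higher in the main scaling, into 206 lower and 302 higher. That scaling put the minor copy at -1.93 and the major copy at -1.84, while the median of all genes moved to 0.22 from -0.01, so relative to that median they stood at -2.15 and -2.06. In bulk samples, fewer cells of a type and less RNA per cell cannot be told apart.

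Total mRNA held no comparable difference for either copy. The minor copy's log2 ratio of morphant over wild type was 0.26 (on reads 0.27, interval 0.05 to 0.50), and the major copy's was 0.10 (on reads 0.10, interval -0.08 to 0.28). The point values were above 0 under every scaling tried, and the interval of the major copy included 0. Among 12154 genes above the floor in total mRNA, 0.675% stood at least 2-fold below wild type in morphants and 1.43% at least 2-fold above, and neither copy was among them.

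Polysome association, the polysomal minus the total log2 ratio, is built from the same 4 libraries as both comparisons above and adds no independent evidence. It was -2.42 for the minor copy (on reads -2.52, interval -2.81 to -2.23) and -2.17 for the major copy (on reads -2.22, interval -2.44 to -1.99). Of 7546 genes above the floor for association, 3.07% stood at least 2-fold below wild type in morphants and 1.62% at least 2-fold above. Only 15 genes were below the minor copy and 22 below the major copy in the scaling used. Totals without the 50 most abundant genes gave 154 lower and 236 higher genes in place of 232 and 122, and left the copies at -2.21 and -1.96.

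**Figure D2:**
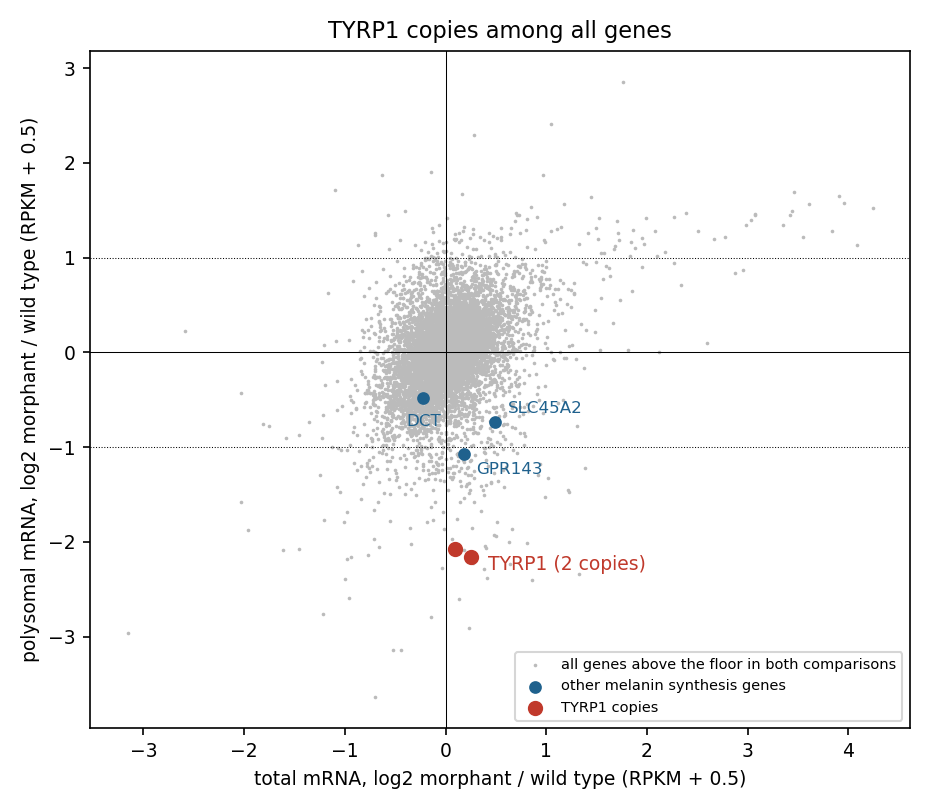
Log2 ratio of morphant over wild type in total mRNA (horizontal axis) and polysomal mRNA (vertical axis), each point 1 gene above the floor in both comparisons and dotted lines at 2-fold in polysomal mRNA. The TYRP1 copies lie at -2.16 and -2.07 in polysomal mRNA and near 0 in total mRNA, below the melanin synthesis genes GPR143, SLC45A2 and DCT.

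Taken within a condition, polysomal over total mRNA set wild type apart from morphants for both copies. These ratios reuse the polysomal levels on which the copies were selected. Their difference between the conditions is the association given above, so they add no independent evidence. In morphants the log2 ratio of polysomal over total mRNA was -0.23 for the minor copy (on reads -0.24, interval -0.47 to -0.01) and 0.07 for the major copy (on reads 0.07, interval -0.11 to 0.25). These small ratios turn with the scaling: upper-quartile scaling put the minor copy at 0.24, and totals without the 50 most abundant genes put the major copy at -0.16. In wild type the same ratio was 2.19 for the minor copy (on reads 2.28, interval 2.09 to 2.46). For the major copy it was 2.24 (on reads 2.29, interval 2.15 to 2.43). On reads per mapped read these are 4.85-fold and 4.89-fold, ratios between separately scaled libraries and not the part of the mRNA on polysomes. Over all alternatives the wild-type log2 ratio ran from 1.76 to 2.64 (minor) and from 1.80 to 2.69 (major), beyond the counting intervals. Of 11951 genes above the floor in morphants, 6.81% had a polysomal level at least 2-fold above the total level and 41.1% at least 2-fold below. In wild type the shares were 10.5% above and 42.7% below of 12072 genes, and 191 genes exceeded the major copy. Upper-quartile scaling gave 1828 higher and 3371 lower in morphants, against 814 and 4913 in the main scaling, and 2214 higher and 3632 lower in wild type, against 1267 and 5156. Without the 50 most abundant genes the counts were 517 higher and 6065 lower in morphants and 713 higher and 6784 lower in wild type. Relative to the median of all genes, which was -0.70 in morphants and -0.71 in wild type, the copies stood 0.47 and 0.77 above it in morphants, and 2.90 and 2.94 above it in wild type.

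Other genes of melanin synthesis differed in how far they shared the high wild-type polysomal level. Besides the copies, 8 genes of the list were in the files, and 3 of them were above the floor in polysomal mRNA: GPR143, a receptor of the melanosome membrane, SLC45A2, a melanosomal transporter mutated in the zebrafish albino line, and DCT. All 3 had log2 ratios below 0, under every scaling tried, with a median of -0.73 against -0.01 over all genes above the floor. Of the 3, 1 was at least 2-fold lower, beside 4.12% of all genes. DCT reached the floor in wild-type but not in morphant polysomal mRNA, so the floor admitted it through the library where it is higher. Without a floor the median over all 8 was -0.40, against -0.04 over all genes. GPR143 (ENSDARG00000034572) stood at 6.58 RPKM in morphant and 14.3 in wild-type polysomal mRNA and at 3.10 in morphant and 2.67 in wild-type total mRNA, a polysomal log2 ratio of -1.07. As for TYRP1, wild-type polysomal mRNA was its high library, with a smaller gap, and without the 50 most abundant genes the ratio was -0.84, short of 2-fold. SLC45A2 (ENSDARG00000002593) had 16.3 RPKM in morphant and 27.4 in wild-type polysomal mRNA, against 10.1 in morphant and 7.05 in wild-type total mRNA. Its polysomal ratio was -0.73 and its association -1.23, its total ratio being above 0, at 0.49. DCT (ENSDARG00000006008) differed less, with 2.66 RPKM in morphant and 3.93 in wild-type polysomal mRNA (-0.49) and 4.32 in morphant and 5.14 in wild-type total mRNA (-0.23).

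Genes below the floor in polysomal mRNA included TYR itself and SLC24A5. TYR (ENSDARG00000039077) had 1.24 RPKM in morphant and 1.46 in wild-type polysomal mRNA (96 and 81 reads) although it stood at 11.6 RPKM in morphant and 9.01 in wild-type total mRNA. In both conditions TYR was thus lower in polysomal than in total mRNA, with a log2 ratio of polysomal over total of -2.80 in morphants and -2.28 in wild type, where TYRP1 was above 2 in wild type. SLC24A5 (ENSDARG00000024771), the cation exchanger mutated in the zebrafish golden line, had 33 reads in morphant and 94 in wild-type polysomal mRNA, and 176 in morphant and 169 in wild-type total mRNA. On reads its polysomal log2 ratio was -1.99 (interval -2.61 to -1.40), close to those of the TYRP1 copies, at levels of 0.262 RPKM in morphants and 1.02 in wild type. Its total log2 ratio on reads was 0.31 (interval -0.01 to 0.62).

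The copper transporter ATP7A (ENSDARG00000003699), which supplies tyrosinase with its metal, had 1.27 RPKM in morphant and 1.14 in wild-type polysomal mRNA, and 5.05 in morphant and 5.56 in wild-type total mRNA, and so was higher in total mRNA in both conditions. OCA2 (ENSDARG00000061303), a melanosomal membrane protein, had 14 reads in morphant and 21 in wild-type polysomal mRNA. MC1R (ENSDARG00000020237), the melanocortin receptor, had 3 reads in morphant and 0 in wild-type polysomal mRNA, too few for a ratio. In total mRNA, 5 of the 8 genes were above the floor, with a median of 0.18 against -0.02 over all genes. None was 2-fold different, beside 0.675% lower and 1.43% higher of all genes. For association 2 were above the floor, and SLC45A2 was at least 2-fold lower, beside 3.07% of all genes. GPR143 missed that floor in wild-type total mRNA, at 2.67 RPKM. Without a floor, GPR143 at -1.25 and SLC24A5 at -1.22 (on reads -2.30, interval -2.94 to -1.65) were also at least 2-fold lower. ATP7A, at 0.24, was the only gene above 0 of those with enough reads for a ratio. MC1R, at -0.14 with the pseudocount, has too few reads for its sign to be read. The median over all 8 was -0.39, against -0.07 over all 32313 genes, of which 932 were at least 2-fold lower.

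**Figure D3:**
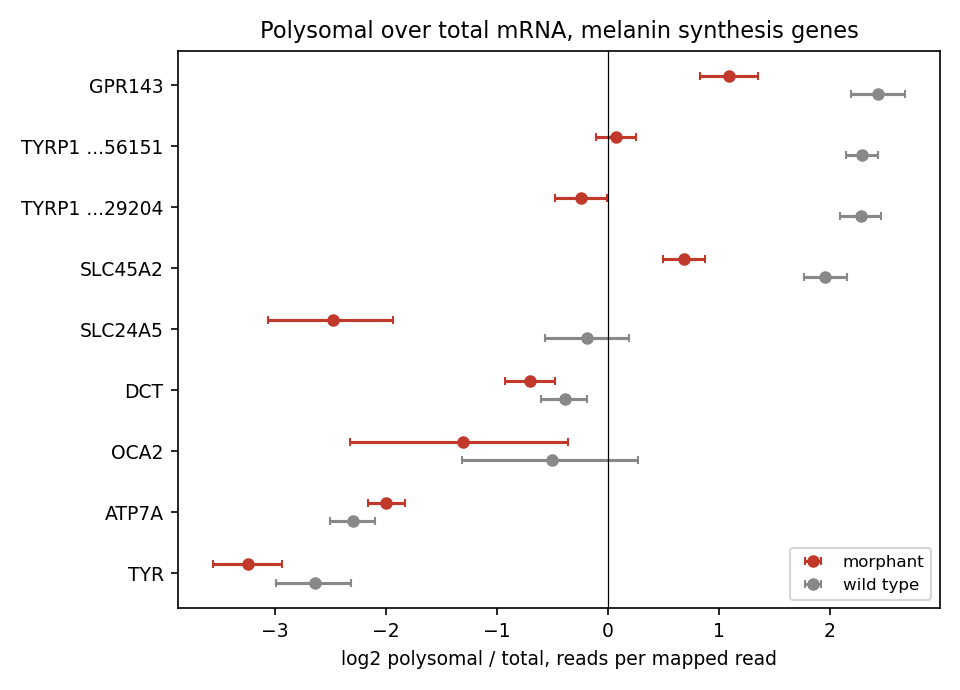
Log2 ratio of polysomal over total mRNA in reads per mapped read (horizontal axis) for 9 melanin synthesis genes, morphant above wild type, with 95% counting intervals. The TYRP1 copies sit at 2.28 and 2.29 in wild type and at -0.24 and 0.07 in morphants, while TYR is below 0 in both; MC1R is not drawn for lack of reads.

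The share of the 2 copies in the melanin synthesis list was largest in wild-type polysomal mRNA. Their summed RPKM was 19.6 in morphant polysomal, 87.5 in wild-type polysomal, 20.2 in morphant total and 18.0 in wild-type total mRNA. This was 40.6% of the summed RPKM of all 10 list genes in morphant polysomal mRNA, against 63.8% in wild-type polysomal mRNA, and it was 35.7% in morphant and 36.6% in wild-type total mRNA. The polysomal shares and ranks reuse the levels on which the copies were selected. Within wild-type polysomal mRNA the copies ranked above every other gene of the list, ahead of SLC45A2. In morphant polysomal mRNA, SLC45A2 was first at 16.3 RPKM (interval 15.0 to 17.6), above the major copy, and the minor copy (6.12 to 7.72) could not be ordered against GPR143 (5.93 to 7.24). In total mRNA of both conditions the major copy, TYR, SLC45A2 and the minor copy were the leading genes in that order. In morphants the intervals of the major copy, TYR and SLC45A2 all overlapped, and that of the minor copy lay below them. In wild type the intervals of the major copy, TYR and SLC45A2 did not overlap, and those of SLC45A2 and the minor copy did.

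Genes on the list of melanosome structure and transport, which includes subunits of the AP-3 and BLOC-1 complexes, mostly lay near 0 in polysomal mRNA. In whole embryos these levels are not those of pigment cells alone. Of 32 in the files, 18 were above the floor, 1 was at least 2-fold lower and none higher, beside 4.12% lower and 1.76% higher of all genes. The list's median was -0.07 against -0.01 over all genes, and 0.15 against 0.22 when the 50 most abundant genes were left out of the totals. The lowest were the copies of the fibril protein of the melanosome, pmela (ENSDARG00000091298) at -1.05, short of 2-fold at -0.82 without the 50 most abundant genes, and pmelb (ENSDARG00000033760) at -0.95. The level of pmela was 17.2 RPKM in morphant and 36.1 in wild-type polysomal mRNA, and 23.6 in morphant and 16.8 in wild-type total mRNA. In total mRNA pmela was above wild type in morphants, at 0.48, and its association was -1.53. The other polysomal extremes, AP3M1 of the AP-3 sorting complex and BLOC1S2 of the BLOC-1 complex, were at 0.45 and 0.44. In polysomal mRNA pmelb reached the floor in wild type alone and AP3M1 in morphants alone, so the floor admitted each through the library where it is higher. In total mRNA 20 were above the floor and none was 2-fold different, beside 0.675% lower and 1.43% higher of all genes. Their median was 0.09, with SNAPIN at 0.52, BLOC1S6 at 0.30 and BLOC1S1 at -0.28.

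Genes that specify melanophores and neural crest held no 2-fold difference in polysomal or in total mRNA. Of all genes, 4.12% were at least 2-fold lower and 1.76% higher in polysomal mRNA, and 0.675% and 1.43% in total mRNA. The list had 17 genes in the files, of which 7 were above the floor in polysomal mRNA, with a median of -0.01. MITF (ENSDARG00000003732), the transcription factor that drives TYRP1 and TYR in mammals, stood at 3.47 RPKM in morphant and 4.34 in wild-type polysomal mRNA and at 2.49 in morphant and 1.92 in wild-type total mRNA. The crest factor FOXD3 (ENSDARG00000021032) was at 0.57 in polysomal and -0.42 in total mRNA, with an association of 0.99 (on reads 1.02, interval 0.80 to 1.24). This association passed 2-fold under each of the 3 other scalings. Those scalings also raised the association median of all genes, from -0.005 to 0.015, 0.031 and 0.191. Of the rest, snai2 at 0.29 and TFAP2E at -0.44 in polysomal mRNA. In total mRNA 12 were above the floor, with a median of -0.20, the crest factor SOX10 (ENSDARG00000077467) at 0.43, the receptor ERBB3 at 0.44, zeb2a at -0.45 and SOX9 (ENSDARG00000003293) at -0.80.

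The other pigment cell types differed in how they stood beside TYRP1. Xanthophores, the yellow pigment cells, were represented by 5 genes, of which 2 were above the floor in polysomal mRNA: the transporter gene slc2a15b (ENSDARG00000053269) at -1.32, with 3.76 RPKM in morphants and 10.2 in wild type, and the pteridine enzyme gene PTS at -0.77. In total mRNA these were at -0.27 and 0.01 and PAX7 at 0.91. Iridophores, the silvery pigment cells, had 3 of 7 genes above the floor, the purine enzyme genes PAICS at -0.41 and ATIC at -0.26, and pnp4a at -0.05. None was 2-fold different, beside 4.12% lower and 1.76% higher of all genes. In total mRNA pnp4a was at 0.26, PAICS at 0.23, ATIC at 0.10 and ALX4 (ENSDARG00000088332) at -0.04.

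Of the genes listed for the retinal pigment epithelium, the other melanin-making tissue, those above the floor lay on the opposite side from TYRP1 in polysomal mRNA. In whole embryos their levels are not those of that tissue alone. Of 14 in the files, 7 were above the floor and all 7 had log2 ratios above 0, from 0.04 to 1.07 (under upper-quartile scaling, 7 of 8). Their median was 0.23, against -0.01 over all genes above the floor. When the 50 most abundant genes were left out of the totals it was 0.46, against 0.22. Without a floor the median over all 14 was 0.09, against -0.04 over all genes. In association without a floor, a feature named RPE65 was at least 2-fold lower, and SLC16A8 and rlbp1a were at least 2-fold higher. Of all 32313 genes, 932 were lower and 494 higher in the same way. In polysomal mRNA SLC16A8 (ENSDARG00000045153), a lactate transporter, was at 1.07, at least 2-fold higher (0.95, short of 2-fold, with a pseudocount of 1 RPKM). Its level was 5.28 RPKM in morphant and 2.26 in wild-type polysomal mRNA, so the floor admitted it through the library where it is higher. LRAT (ENSDARG00000037278), a retinoid-storing enzyme, was at 0.93, OTX2 at 0.29 and STRA6 at 0.23. In total mRNA 8 were above the floor, 4 below 0 and 4 above, with a median of 0.02 against -0.02 over all genes. LRAT was at 0.50, RPE65 (ENSDARG00000094752) at 0.33, OTX2 at -0.21 and STRA6 at -0.46. Over all 6 pigment lists without TYRP1, 3 of 40 genes that passed the floor were at least 2-fold lower in polysomal mRNA and 1 higher, which is 7.5% and 2.5% beside 4.12% and 1.76% of all genes, with a median of -0.05. The genes were GPR143, pmela, slc2a15b and SLC16A8. Without the 50 most abundant genes the split turned to 1 lower, slc2a15b, and 2 higher, SLC16A8 and LRAT, of 37. The split of all genes turned the same way, to 206 lower and 302 higher of 7915. With a pseudocount of 1 RPKM the pigment genes were 3 lower and 0 higher of 40, beside 289 and 110 of 8261 genes. For association the counts were 3 lower and 1 higher of 35, or 8.57% and 2.86%, beside 3.07% and 1.62% of all genes. They were 2 and 2 of 33 without the 50 most abundant genes, beside 154 lower and 236 higher of 7439 genes. With a pseudocount of 1 RPKM they were 2 and 0 of 35, beside 217 and 87 of 7546 genes. In total mRNA the counts were 0 and 0 of 52, beside 0.675% lower and 1.43% higher of all genes.

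**Figure D4:**
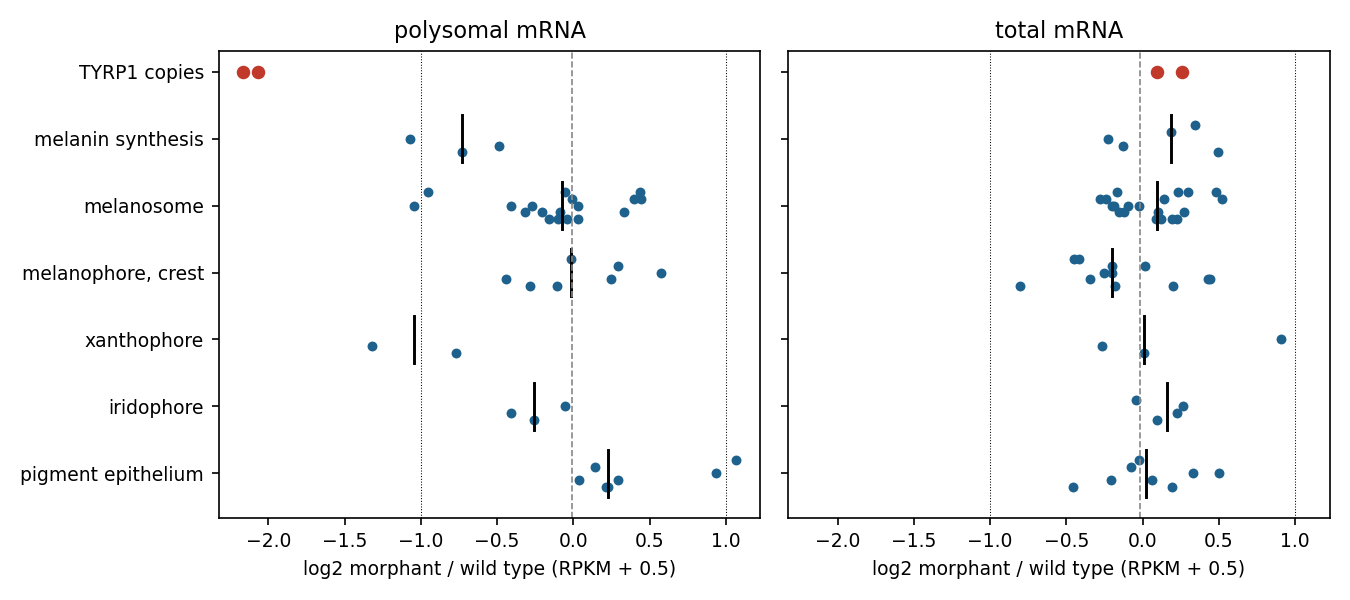
Log2 ratio of morphant over wild type (horizontal axis) for the TYRP1 copies and the members above the floor of 6 pigment gene lists, in polysomal mRNA (left) and total mRNA (right), each point 1 gene, black bars at list medians, dashed lines at the median of all genes and dotted lines at 2-fold. In polysomal mRNA the copies lie left of every other pigment gene drawn, and the 7 pigment epithelium genes lie above 0.

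A peak in wild-type polysomal mRNA of the kind the copies had was found for few genes. Part of that peak, the gap to morphant polysomal mRNA, is the difference on which the copies were selected. Of 12590 genes with at least 3 RPKM in 1 library or more, 184, or 1.46%, were at least 2-fold above each of the other 3 libraries in wild-type polysomal mRNA, and 67 of the 184 reached 3 RPKM in that library alone, as neither TYRP1 copy did. In the pigment lists GPR143 alone was among them beside TYRP1. Summed levels of lens crystallin and parvalbumin genes were also highest in that library. The 30 gamma M crystallins of the lens summed to 4.64 RPKM in morphant polysomal, 129 in wild-type polysomal, 2.20 in morphant total and 2.96 in wild-type total mRNA. All 17 of them above the floor reached it in wild-type polysomal mRNA alone, so that the floor itself favours a peak there and no count is read from them. The 8 parvalbumins, calcium buffers of which some mark fast muscle, summed to 593 RPKM in morphant polysomal and 3810 in wild-type polysomal mRNA. In total mRNA they summed to 289 RPKM in morphants and 205 in wild type. Of 7 above the floor, 6 had the peak, and 1 of the 7 reached the floor in wild-type polysomal mRNA alone. Of the gamma M crystallins, 10 had no read in morphant polysomal, 6 in wild-type polysomal, 14 in morphant total and 7 in wild-type total mRNA, and every parvalbumin had reads in all 4 libraries. The part of lens or muscle tissue, or of the single wild-type polysomal library, in the TYRP1 values was not tested. Without that library the polysomal difference has no value, and what remains are the total log2 ratios of 0.26 and 0.10 and the morphant polysomal over total ratios of -0.23 and 0.07.

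The 6 genes whose profile over the 4 libraries was nearest to that of the copies all reached 3 RPKM in wild-type polysomal mRNA alone, so the floor admitted them through the library where they are high. Likeness was the distance between mean-centred log2(RPKM + 0.5) profiles, a description of 4 values per gene. Among 10001 other genes with a symbol and at least 3 RPKM in 1 library, the nearest were tnnt2e (0.157), a troponin T gene, SNAP25 (0.169), a synaptic vesicle fusion gene, dhrs12la (0.195), the chemokine gene ccl27a (0.279), zgc:113276 (0.307) and the lens crystallin gene CRYBA2 (0.346), and the copies themselves lay 0.107 from their mean. All 6 had lower levels than TYRP1. SNAP25 (ENSDARG00000058117) had 1.25 RPKM in morphant polysomal, 6.32 in wild-type polysomal, 1.38 in morphant total and 1.21 in wild-type total mRNA. At this low level the choice of gene depends on the pseudocount: with 1 RPKM added, 1 of the 6 remained, ccl27a, which rests on 2, 24, 1 and 1 reads in morphant polysomal, wild-type polysomal, morphant total and wild-type total mRNA, and the other 5 were gamma M crystallins.

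**Figure D5:**
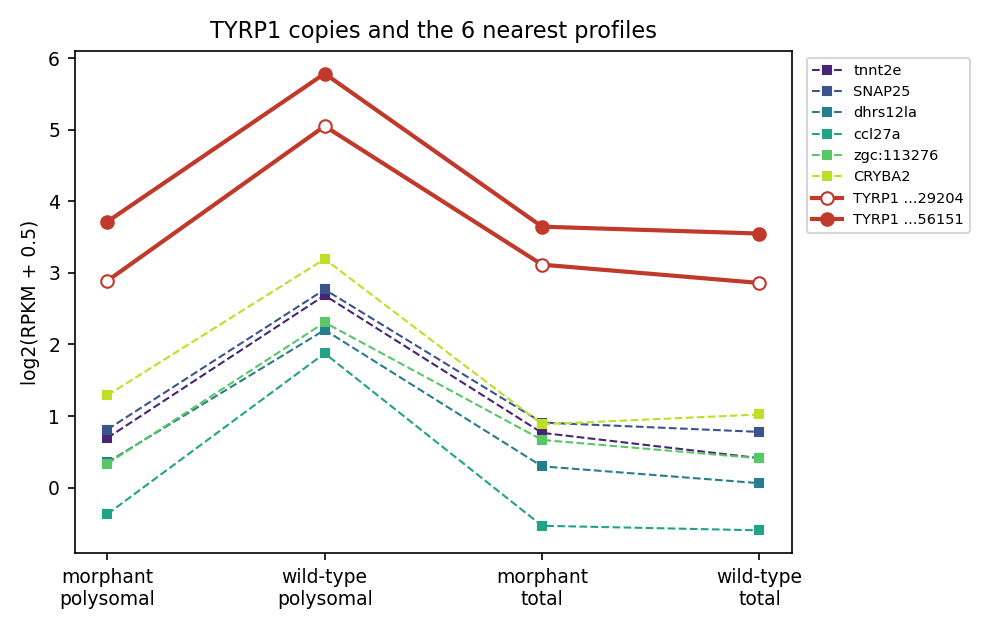
Profiles of the TYRP1 copies (thick lines) and of the 6 genes with the nearest profile (dashed lines) as log2(RPKM + 0.5) (vertical axis) over the 4 libraries, 1 library per point. All 8 lines peak in wild-type polysomal mRNA, and the TYRP1 copies lie highest.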

How the data were processed

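Polysomal and total mRNA were measured in 4 libraries, 1 per group, grouped by sample titles. The authors deposited 1 RPKM value per Ensembl gene and library, per the file headers; the submitters' processing notes name the build Zv9, and neither aligner, counter nor annotation is given in the sources used here. Symbols were joined by identifier for 20499 of 32313 genes. No value is 0, and low values step as a whole number of reads plus 1. Depths were solved from these steps, and reads for the 97.8% of genes whose 4 values came out whole within 0.05 of a read. Genes needed 3 RPKM in 1 library compared (for association, in both total and 1 polysomal library). Ratios used a pseudocount of 0.5 RPKM. Intervals are exact (Clopper-Pearson; Poisson for single levels), or normal approximations for association. No significance test between groups was made.

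The members and lists were chosen with earlier results of these data known. Named genes are the copies, all melanin synthesis genes, up to 4 members per other list farthest from 0 in polysomal and in total mRNA, and the 6 nearest profiles. The gamma M crystallin and parvalbumin lists are given as sums. Alternatives were other pseudocounts (1 and none), 3 scalings, floors (none, 12 RPKM), folds (1.5, 4) and summed copies. Read recovery and the 2-fold calls were tested on simulated tables with known depths, reads and folds, a check of the computation only. Tools were SciPy 1.17.1, pandas 2.3.3, NumPy 2.4.6 and Matplotlib 3.10.9 under Python 3.11.15.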

Additional observations from a re-analysis of the deposited data

How the results depend on the processing

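Of 60 alternative values for the copies, 50 moved by less than the counting interval, none of the called ones changed sign, and 10 moved by more. Totals without the 50 most abundant genes gave polysomal log2 ratios of -1.93 (minor copy) and -1.84 (major copy), polysomal over total ratios in wild type of 1.76 and 1.80, and -0.16 in morphants for the major copy. Upper-quartile scaling gave polysomal over total ratios of 0.24 and 0.54 in morphants and 2.64 and 2.69 in wild type, and median-of-ratios scaling gave 2.38 for the major copy in wild type. Over all alternatives polysomal ratios ran from -2.24 to -1.93 (minor) and -2.13 to -1.84 (major).

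Counts of all genes past the fold, in the order polysomal, total, association, polysomal over total in morphants and in wild type, were 485, 256, 354, 5727 and 6423. They became 829, 468, 1426, 8880 and 9665 with no floor, 219, 112, 117, 2243 and 2697 at 12 RPKM, and 79, 46, 34, 2700 and 3250 at 4-fold. At 1.5-fold the first 3 became 1562, 1197 and 1176. Pigment genes past 2-fold were 4, 0, 4, 23 and 26 in the same order, of 40, 52, 35, 54 and 55. In polysomal over total mRNA, 38.9% were lower and 3.70% higher in morphants, beside 41.1% and 6.81% of all genes. For wild type these shares were 38.2% and 9.09%, beside 42.7% and 10.5%. With no floor, 2 of 83 were past 2-fold in total mRNA and 9 of 83 in association, beside 468 and 1426 of 32313 genes. At 12 RPKM the counts were 2 of 11, 1 of 7, 6 of 18 and 12 of 19 (total mRNA apart). Beside these were 219 of 3791, 117 of 3108, 2243 of 5262 and 2697 of 5388 genes. A pseudocount of 1 gave 2 of 35 in association, beside 304 of 7546 genes. Of the 6 nearest profiles, 1 was shared with a pseudocount of 1. Single lists kept their count within 1.5 times in 142 of 180 alternatives. This includes lists with 0 genes past 2-fold in both settings, as in most of total mRNA, so it does not measure stability. The cause of the changed counts was not tested beyond what fewer or more genes tested, or another fold, give by construction. No paired analysis was possible because each group has 1 library. With 1 library a group, single ratios are known at best to within the counting intervals given.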
